A study of Mus musculus with 16 samples.

Results

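The SLC25 carriers are the family of proteins that move metabolites, nucleotides and cofactors across the inner mitochondrial membrane. Every gene whose symbol is Slc25a followed by a number was taken from the authors' deposited tables of mouse heart RNA sequencing. That gave 46 genes of the 22098 that appear in 1 or more tables, and 44 of them appear in all 4 tables. The symbol alone decided which genes were taken, but the family was chosen with earlier results of these data known.

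A mitochondrion burns fuel behind a membrane that most charged molecules cannot cross, so each substrate needs a carrier. In the heart, fatty acids enter as carnitine esters, the reducing power of cytosolic NADH enters through the malate-aspartate shuttle, and ADP is exchanged for ATP. NAD+ and coenzyme A, the cofactors of that oxidation, are also brought in from the cytosol by members of the family. Most SLC25 proteins share a fold of repeated membrane-spanning segments and are delivered to the inner membrane by the TIM22 import route.

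The study set pressure overload of the heart against sham surgery, with or without NR, the usual abbreviation of nicotinamide riboside, a precursor of NAD+. TAC is the usual abbreviation of transverse aortic constriction, in which the aortic arch is narrowed so that the left ventricle pumps against a raised pressure. The 16 libraries of mouse heart formed 4 groups: 5 NR TAC, 4 Vehicle TAC, 4 NR SHAM and 3 Vehicle SHAM libraries. No genetic change is named for any group, and strain, sex, age, dose, duration and the part of the heart taken are not given in the sources used here. Nothing states that the libraries came from separate animals, so a p-value may measure only the spread between libraries.

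Each deposited table compares 1 pair of groups and holds, for every gene, the mean of the normalized counts in each group, their fold change and a DESeq p-value. Normalized counts are read counts divided by a size factor of the library. Values of single libraries and their depths are not in these tables, so group means are given without an SD and without a counting interval. The spread between libraries enters through the authors' p-values, and a typical error of the log2 fold change, taken over genes of like mean from those p-values, is given beside the main results. A gene was called when its adjusted p was below 0.05. The heart label was checked with 10 cardiomyocyte genes such as Myh6 and Tnnt2. Their means, brought to a common scale from the authors' deposited tables, summed to 2338050 in NR TAC, 2360850 in Vehicle TAC, 2701410 in NR SHAM and 2640360 in Vehicle SHAM hearts, and none of the 10 was listed at 0.

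The family was dominated by the carriers that serve ATP synthesis. Levels were compared between genes per kb of exon, after the group means of the authors' deposited tables had been brought to a common scale. Slc25a4, the ADP/ATP carrier of heart and skeletal muscle, stood at 58616 normalized counts per kb in NR TAC, 62616 in Vehicle TAC, 65307 in NR SHAM and 64301 in Vehicle SHAM hearts, rescaled from the authors' deposited tables. That was 63.1% of the summed level of all carriers in NR TAC hearts. Slc25a3, which imports the phosphate used by ATP synthase, came next with 9711 per kb in NR TAC, 9654 in Vehicle TAC, 11432 in NR SHAM and 10927 in Vehicle SHAM hearts on the same scale from the authors' deposited tables. Slc25a11, which exchanges oxoglutarate for malate, followed with 8568 per kb in NR TAC, 9111 in Vehicle TAC, 9827 in NR SHAM and 9809 in Vehicle SHAM hearts, again from the authors' deposited tables. These 3 genes made up between 82.8% and 83.7% of the family's summed level in every group.

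The carriers of cofactors and fatty acids lay far lower. Slc25a20, the carnitine/acylcarnitine carrier, had between 979 and 1227 normalized counts per kb across the 4 groups of the authors' deposited tables. Slc25a42, a carrier of coenzyme A, had 517 per kb in NR TAC, 491 in Vehicle TAC, 757 in NR SHAM and 697 in Vehicle SHAM hearts, rescaled from the authors' deposited tables. Slc25a51, the NAD+ carrier, had 421 per kb in NR TAC, 417 in Vehicle TAC, 462 in NR SHAM and 432 in Vehicle SHAM hearts in the same tables. The SHAM groups therefore had the higher Slc25a42 means, while the 4 means of Slc25a51 lay close to each other. In each group, 39 of the 46 carriers reached 10 normalized counts per kb, between 27 and 29 reached 100, and 8 or 9 reached 1000. The lowest members included Slc25a48, listed at 0 in Vehicle SHAM hearts, and Slc25a41, a short ATP-Mg/phosphate carrier. The order of neighbouring carriers was not tested, since the spread within a group is not in these tables.

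**Figure D1:**
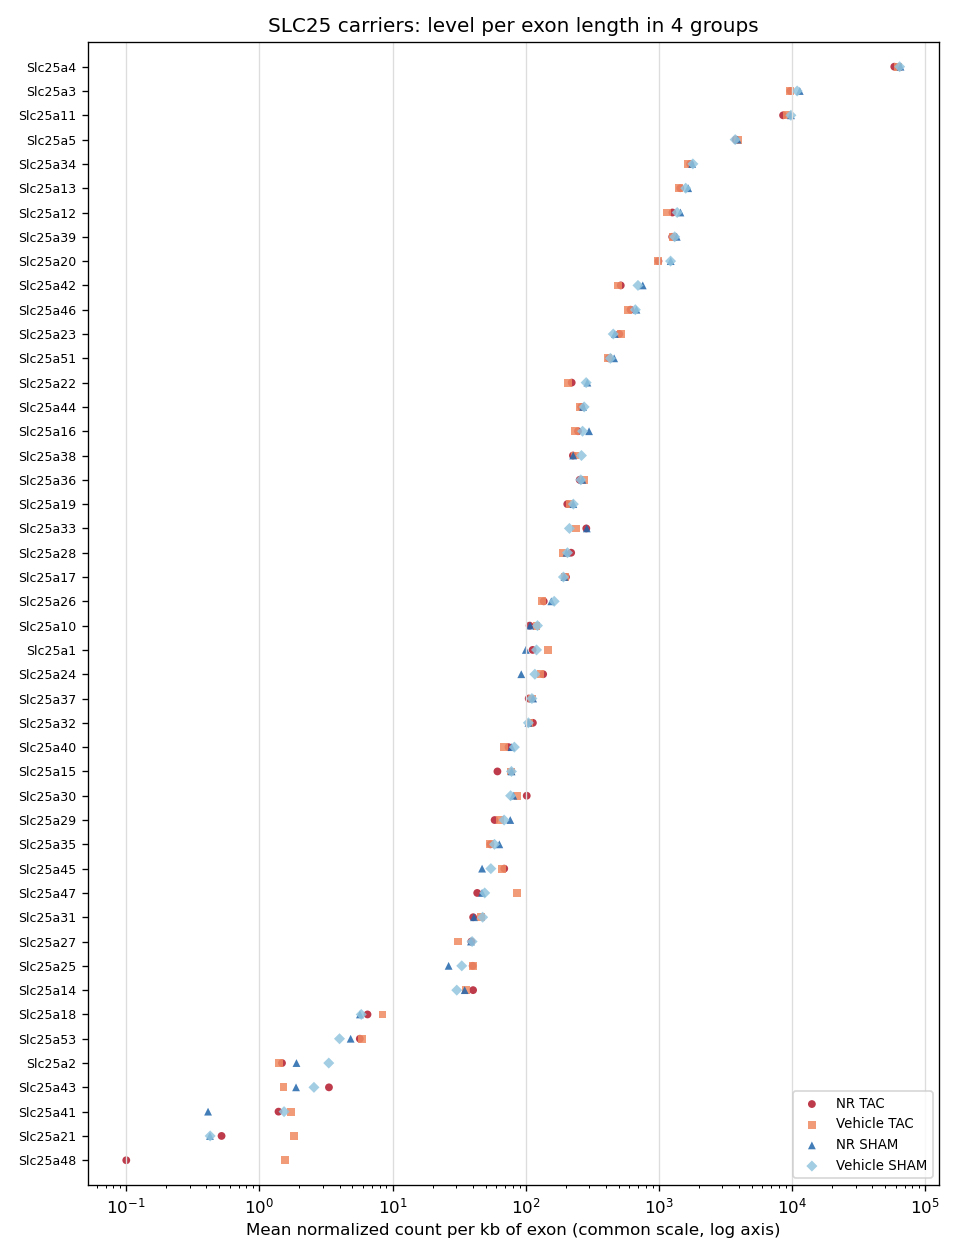
Mean normalized count per kb of exon (log axis, common scale) for the 46 carriers, one row each, in the 4 groups; points at 0 or not listed are left out. The 4 groups overlie each other for most carriers, with Slc25a4 between 58616 and 65307 per kb and 39 of the 46 carriers at 10 per kb or more.

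The first comparison asked what TAC did to the carriers without NR. Slc25a42, Slc25a22 and Slc25a20 had the lowest p-values among carriers with lower means in Vehicle TAC hearts, and no carrier passed the test. Of 46 carriers, 0 were called, against 0.0487% of the 20540 genes in the authors' deposited table. At an unadjusted p below 0.05 there were 0 higher and 2 lower carriers, against 2.12% of all genes lower. The median log2 fold change of the carriers was -0.05 with 28 of 46 below 0, and that of all genes was 0.01 with 48.1% below 0, in the authors' deposited table. Among the 39 carriers averaging 50 or more, 26 were below 0, against 51.8% of all genes at that level. These signs depended on the scaling: with group means divided by their sum over all genes, the carriers' median became 0.10 and 14 of 46 were below 0. Every gene shifted by the same 0.15, so the distance between the carriers' median and that of all genes did not change.

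The same comparison in NR-treated hearts called 1 carrier, and it was again Slc25a42. The protein imports coenzyme A, the acyl carrier of fatty acid and pyruvate oxidation, into the matrix in exchange for adenine nucleotides. Slc25a42 had a mean of 3046 normalized counts in NR TAC and 4453 in NR SHAM hearts, and fell by 0.55 on the log2 scale (adjusted p 0.0228 by DESeq), per the authors' deposited table. The typical error for genes of its mean was 0.138. In hearts without NR, the authors' deposited table gives 3025 in Vehicle TAC and 4298 in Vehicle SHAM hearts, a log2 fold change of -0.51 with an unadjusted DESeq p of 0.0293 and an adjusted p of 0.970. Both TAC groups thus had means below both SHAM groups, and the size of the difference was close in the 2 comparisons, which share no library. The called share was 1 of 45 carriers, against 0.549% of the 20946 genes in either direction and 0.243% of them lower. With the group means divided by their sum over all genes in place of size factors, the log2 fold change of Slc25a42 was -0.46 in NR and -0.36 in vehicle hearts.

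In NR hearts, 5 carriers were lower and 2 higher at an unadjusted p below 0.05, against 3.45% and 3.52% of all genes. Among genes averaging 50 or more, the 5 lower carriers were 5 of 39, against 5% of the 12535 genes tested. The median log2 fold change of the 45 carriers was -0.05 with 29 below 0, and that of all genes was 0.02 with 46.8% below 0, in the authors' deposited table. Division by the sum of all genes shifted every gene by 0.09, which put the carriers' median at 0.04 with 20 below 0. The distance between the carriers' median and that of all genes stayed the same. In bulk tissue, fewer cells of a type and less RNA per cell cannot be told apart.

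The promoters of the 5 carriers with the smallest p-values in NR hearts are shown because these carriers carry the differences described here. Each is the stretch from 250 to 51 bases before the RefSeq start nearest to the annotated gene start, in GRCm38.p6, read 5′ to 3′ on the strand of the gene. The stretches are chr8:70212332-70212531 (minus strand) for Slc25a42, chr9:108661886-108662085 (plus) for Slc25a20, chr7:141437925-141438124 (minus) for Slc25a22, chr3:109122899-109123098 (plus) for Slc25a24 and chr2:32451521-32451720 (minus) for Slc25a25. Capitals mark matches on either strand to CCAAT (the CCAAT box), GGGCGG (the GC box), CACGTG (the E-box), TGACG (part of the cyclic AMP response element) or AAGGTCA (a binding motif of estrogen-related receptors), and no matches overlapped.
Slc25a42: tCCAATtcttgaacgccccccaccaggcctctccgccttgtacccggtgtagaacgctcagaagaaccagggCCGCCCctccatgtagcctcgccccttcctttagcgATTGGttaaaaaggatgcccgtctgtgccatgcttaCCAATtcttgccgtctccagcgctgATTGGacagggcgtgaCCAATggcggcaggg
Slc25a20: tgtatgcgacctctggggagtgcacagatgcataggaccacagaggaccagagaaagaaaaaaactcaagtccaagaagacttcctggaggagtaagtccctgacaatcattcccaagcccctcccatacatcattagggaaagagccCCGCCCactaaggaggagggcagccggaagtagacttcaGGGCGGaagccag
Slc25a22: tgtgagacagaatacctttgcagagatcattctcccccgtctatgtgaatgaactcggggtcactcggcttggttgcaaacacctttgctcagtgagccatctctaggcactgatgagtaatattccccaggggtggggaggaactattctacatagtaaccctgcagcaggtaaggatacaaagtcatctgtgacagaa
Slc25a24: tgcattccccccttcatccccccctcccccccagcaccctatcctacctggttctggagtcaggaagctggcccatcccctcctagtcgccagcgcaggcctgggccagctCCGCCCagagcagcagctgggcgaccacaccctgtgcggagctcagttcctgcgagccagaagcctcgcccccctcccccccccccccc
Slc25a25: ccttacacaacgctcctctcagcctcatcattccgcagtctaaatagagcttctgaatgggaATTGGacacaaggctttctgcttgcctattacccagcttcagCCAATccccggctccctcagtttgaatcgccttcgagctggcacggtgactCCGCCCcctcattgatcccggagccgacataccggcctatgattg
Slc25a42 held 5 matches to CCAAT and 1 to GGGCGG, the CCAAT matches lying between 249 and 61 bases before the start. Of 32851 RefSeq windows of this kind, 33 held as many CCAAT matches or more. Slc25a25 held 2 matches to CCAAT and 1 to GGGCGG, Slc25a20 held 2 to GGGCGG, Slc25a24 held 1 to GGGCGG, and Slc25a22 held none. Over the 46 windows of the 36 carriers found in the RefSeq table, CCAAT was in 39.1%, against 28.4% of all windows, and GGGCGG in 47.8%, against 24.6%. The other letters were rarer. TGACG was in 8 carrier windows (17.4%), against 12.7% of all windows. CACGTG was in 6 (13.0%), against 4.34%, and AAGGTCA in 1 (2.17%), against 3.36%. A match describes the letters of the window and not a bound site.

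The carriers of fatty acid entry and coenzyme A supply did not all have the same sign for TAC, and differences between them were not tested. Slc25a20, which carries acylcarnitines in and carnitine out, had 4721 normalized counts in NR TAC and 5831 in NR SHAM hearts (log2 fold change -0.30, unadjusted DESeq p 0.0222) in the authors' deposited table. In vehicle hearts the authors' deposited table gives 4876 in Vehicle TAC and 6102 in Vehicle SHAM hearts (-0.32, unadjusted DESeq p 0.0524). Both comparisons had lower means after TAC, and neither passed the adjusted threshold. Slc25a16, linked to mitochondrial coenzyme A, had log2 fold changes of -0.28 in NR hearts and -0.19 in vehicle hearts in the authors' deposited tables, with unadjusted p of 0.0578 and 0.284. Slc25a17, which serves peroxisomes and not mitochondria, had a log2 fold change of 0.04 in both TAC comparisons of the authors' deposited tables. The typical errors at its mean were 0.162 in NR and 0.198 in vehicle hearts.

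The lists of genes that work beside the carriers gave 0 DESeq calls in any of the 4 tables. At an unadjusted p below 0.05, 3 of their 58 genes were higher for TAC in NR hearts and 5 lower, against 3.52% and 3.45% of all genes. In vehicle hearts 1 of 57 was higher and 5 were lower, against 2.77% and 2.12% of all genes. Of 12 genes of the carnitine shuttle and acyl-CoA supply, 9 had negative log2 fold changes for TAC in NR hearts and 8 in vehicle hearts in the authors' deposited tables, and 7 in each with group means divided by their sum. With the authors' size factors, 46.8% and 48.1% of all genes were below 0. At an unadjusted DESeq p below 0.05, 1 of the 12 was higher and 3 lower in NR hearts. In vehicle hearts 0 were higher and 3 lower. Cpt2, which returns acyl groups to coenzyme A in the matrix, had 7482 normalized counts in Vehicle TAC and 9967 in Vehicle SHAM hearts (-0.41, unadjusted DESeq p 0.0116) in the authors' deposited table. Slc22a5, the carnitine uptake transporter of the plasma membrane, had log2 fold changes of -0.36 in NR and -0.42 in vehicle hearts, with unadjusted p of 0.0161 and 0.0200 in the authors' deposited tables. Of 8 genes of coenzyme A synthesis, 7 were below 0 in both TAC comparisons, but with group means divided by their sum 2 were below 0 in NR hearts and 3 in vehicle hearts. Pank1, the pantothenate kinase that starts that pathway, had a log2 fold change of -0.13 in NR hearts and -0.47 in vehicle hearts (unadjusted DESeq p 0.389 and 0.0178) in the authors' deposited tables.

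Slc25a51 moves NAD+ into the matrix, and its level was close in all 4 groups. For TAC, the authors' deposited tables give means of 2278 in NR TAC and 2495 in NR SHAM hearts (-0.13, unadjusted DESeq p 0.329). The pair without NR had 2363 in Vehicle TAC and 2451 in Vehicle SHAM hearts (-0.05, unadjusted p 0.738) in the authors' deposited table. NR itself gave log2 fold changes of 0.01 in TAC hearts and 0.10 in SHAM hearts in the authors' deposited tables, with unadjusted p of 0.968 and 0.420. The typical errors at this mean, between 0.121 and 0.180, exceeded each of these 4 differences. With group means divided by their sum, the value for TAC was -0.04 in NR and 0.10 in vehicle hearts. The p-values do not show that the level was equal.

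The ADP/ATP and phosphate carriers gave no call for TAC. Slc25a4 had 135386 normalized counts in NR TAC and 150732 in NR SHAM hearts (-0.15, unadjusted DESeq p 0.265) in the authors' deposited table. Without NR the authors' deposited table gives 151452 in Vehicle TAC and 155650 in Vehicle SHAM hearts (-0.04, unadjusted p 0.792). Scaled by the sum of all genes, Slc25a4 was at -0.06 in NR and 0.11 in vehicle hearts, so its direction in vehicle hearts depended on the scaling. Slc25a5, the widely expressed ADP/ATP carrier, had log2 fold changes of -0.04 in NR and 0.07 in vehicle hearts in the authors' deposited tables, and 0.05 and 0.22 with group means divided by their sum. Slc25a31, the testis form, had 84.2 normalized counts in NR TAC and 85.3 in NR SHAM hearts, with a log2 fold change of -0.02, and -0.04 in vehicle hearts in the authors' deposited tables. These genes are close in sequence and have processed copies in the genome, so the split of their reads is uncertain. Slc25a3 had 52909 in NR TAC and 62237 in NR SHAM hearts (-0.23, unadjusted DESeq p 0.0728), and -0.18 in vehicle hearts (unadjusted p 0.282) in the authors' deposited tables.

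The ATP-Mg/phosphate carriers, which change the size of the matrix adenine nucleotide pool, had higher means after TAC in all 4 genes. Slc25a41 was near 0, however, with 1.82 normalized counts in NR TAC and 0.54 in NR SHAM hearts (unadjusted DESeq p 0.457). It had 2.36 in Vehicle TAC and 2.10 in Vehicle SHAM hearts, so its direction carries little weight. The log2 fold changes of the 4 genes were positive in both TAC comparisons of the authors' deposited tables, and 0 of 4 were called. They were also positive with group means divided by their sum. Under that scaling 14 of 46 carriers were below 0 in vehicle hearts and 20 of 45 in NR hearts. Slc25a25 had 309 normalized counts in NR TAC and 203 in NR SHAM hearts (0.60, unadjusted DESeq p 0.00183, adjusted p 0.161) in the authors' deposited table. Slc25a24 had 456 in NR TAC and 312 in NR SHAM hearts (0.55, unadjusted DESeq p 0.00236, adjusted p 0.186) in the authors' deposited table. In vehicle hearts the authors' deposited table gives smaller values, 0.27 for Slc25a25 (unadjusted DESeq p 0.177) and 0.14 for Slc25a24 (unadjusted p 0.465). Slc25a23, the most abundant of the class, had 2622 in NR TAC and 2426 in NR SHAM hearts (0.11) and 0.19 in vehicle hearts in the authors' deposited tables. Slc25a25 shares 379 exon bases with Naif1 on the opposite strand, and without a stated strand in the counting their reads cannot be told apart.

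The malate-aspartate shuttle and glutamate carriers lay on the lower side. Of 5 genes, 4 had negative log2 fold changes in both TAC comparisons of the authors' deposited tables, and 4 in NR and 3 in vehicle hearts with group means divided by their sum. Slc25a22, which imports glutamate, had 1303 normalized counts in NR TAC and 1708 in NR SHAM hearts (-0.39, unadjusted DESeq p 0.00729, adjusted p 0.323) in the authors' deposited table. In vehicle hearts the authors' deposited table gives 1289 in Vehicle TAC and 1753 in Vehicle SHAM hearts (-0.44, unadjusted DESeq p 0.0432). Both TAC groups had the lower Slc25a22 mean, without a call in either. The aspartate/glutamate carriers Slc25a12 and Slc25a13 each stood at -0.20 in NR hearts, and at -0.25 and -0.17 in vehicle hearts, in the authors' deposited tables. Slc25a11, the oxoglutarate/malate partner of the shuttle, had -0.20 in NR and -0.11 in vehicle hearts in the authors' deposited tables, and 189 of its exon bases overlap Rnf167 on the opposite strand. The 4 shuttle enzymes Got1, Got2, Mdh1 and Mdh2 lay between -0.30 and -0.20 in NR hearts and between -0.27 and -0.19 in vehicle hearts in the authors' deposited tables. The signs of these 4 enzymes were also negative with group means divided by their sum, and 0 of 4 were called.

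**Figure D2:**
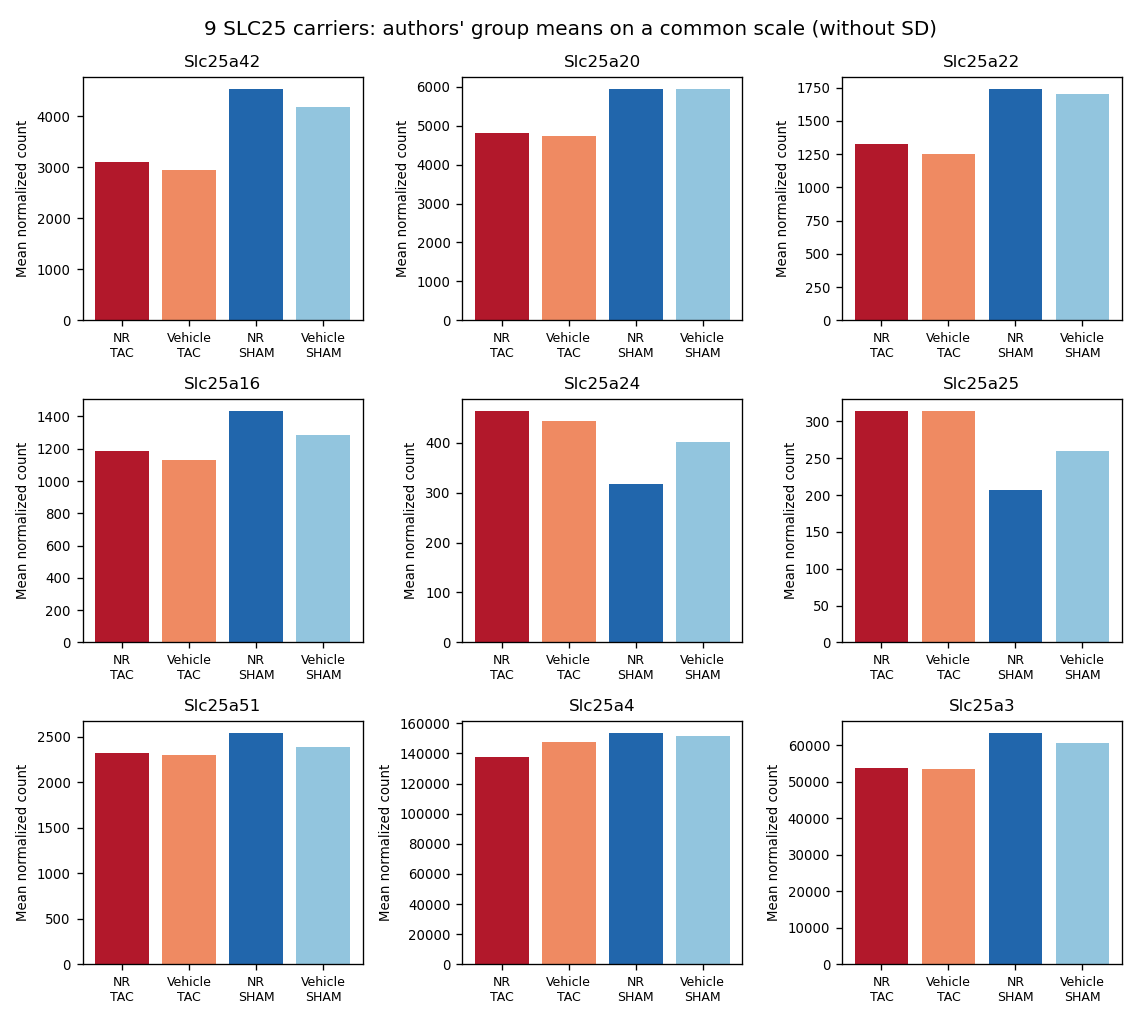
Group means of normalized counts (common scale over the 4 deposited tables, axes from 0) for 9 carriers in NR TAC, Vehicle TAC, NR SHAM and Vehicle SHAM hearts; the tables hold means only, so bars carry no error. Slc25a42 stands at 3103 in NR TAC, 2943 in Vehicle TAC, 4539 in NR SHAM and 4177 in Vehicle SHAM hearts, and Slc25a24 and Slc25a25 are lowest in NR SHAM hearts.

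The remaining classes held no call. The 8 carriers of amino acids, S-adenosylmethionine and glutathione all had negative log2 fold changes in both TAC comparisons of the authors' deposited tables, but with group means divided by their sum 5 were negative in NR hearts and 4 in vehicle hearts. Of these, Slc25a15, the ornithine carrier, had 339 normalized counts in NR TAC and 432 in NR SHAM hearts (-0.35, unadjusted DESeq p 0.0308), and 452 in Vehicle TAC and 453 in Vehicle SHAM hearts, in the authors' deposited tables. Slc25a29, a carrier of basic amino acids, had a log2 fold change of -0.39 in NR hearts (unadjusted DESeq p 0.0490) and -0.11 in vehicle hearts in the authors' deposited tables. Neither gene passed the adjusted threshold.

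The 3 carriers named for likeness to uncoupling proteins, Slc25a14, Slc25a27 and Slc25a30, were positive in NR hearts, and 2 of 3 were positive in vehicle hearts. Slc25a30 had 457 normalized counts in NR TAC and 362 in NR SHAM hearts (0.33, unadjusted DESeq p 0.0556) in the authors' deposited table, and 0.17 in vehicle hearts. Slc25a45, one of the less defined carriers, had 0.55 in NR and 0.28 in vehicle hearts, with unadjusted p of 0.0596 and 0.269 in the authors' deposited tables. The mitoferrins Slc25a28 and Slc25a37, which import iron, lay between -0.12 and 0.12 in both TAC comparisons of the authors' deposited tables. The thiamine pyrophosphate, folate and pyrimidine nucleotide carriers lay between -0.15 and 0.11 in NR hearts and between -0.09 and 0.16 in vehicle hearts in the authors' deposited tables.

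**Figure D3:**
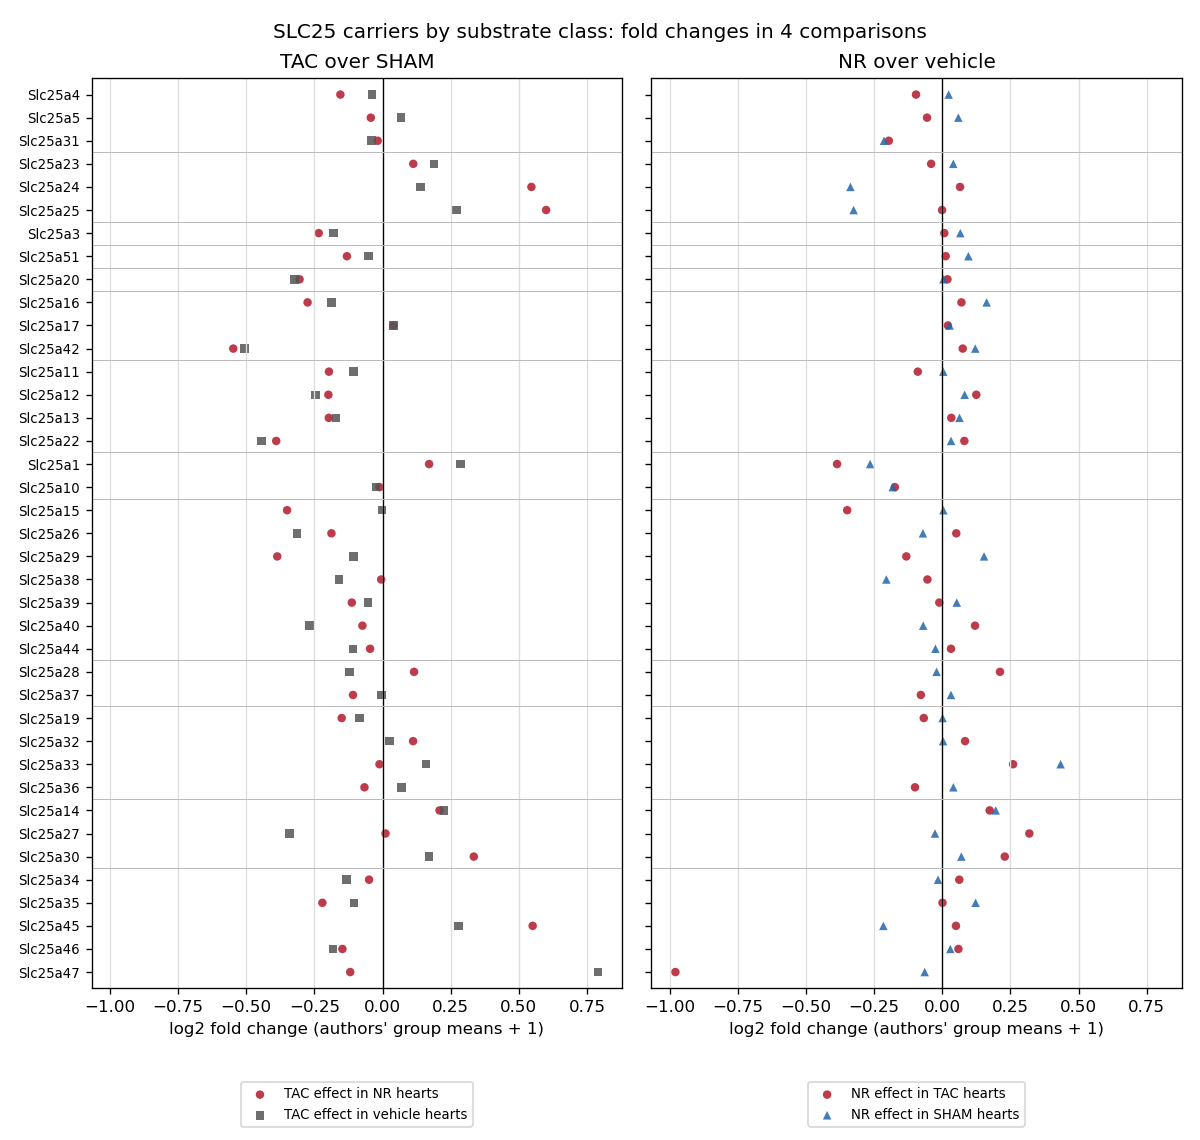
Log2 fold change (authors' group means, each plus 1) of the 39 carriers with a mean of at least 50, one row each and grouped by substrate class, for TAC over SHAM and for NR over vehicle. For TAC, 28 of 39 carriers lie below 0 in NR hearts and 26 in vehicle hearts, and Slc25a42 lies lowest in both; scaled by the sum of all genes, 20 of 45 and 14 of 46 carriers lie below 0.

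The TAC comparisons with and without NR use separate libraries, and their values were set side by side. Of 45 carriers, 25 were negative in both, 13 positive in both and 7 of opposite sign. Across the 39 carriers with a mean of at least 50, 24 were negative in both (61.5%), against 36.8% of the 12459 genes at that level. These counts depended on the scaling: with group means divided by their sum, 9 of the 39 carriers were negative in both (23.1%), against 15.1% of the genes, and 10 of the 45. Pearson's r across these 39 carriers was 0.59 and Spearman's rho 0.65, beside 0.55 and 0.62 across all genes at that level. Genes share libraries and are not independent, so these are descriptions. Among these 39 carriers the largest departure was Slc25a47, at -0.12 in NR and 0.79 in vehicle hearts in the authors' deposited tables.

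**Figure D4:**
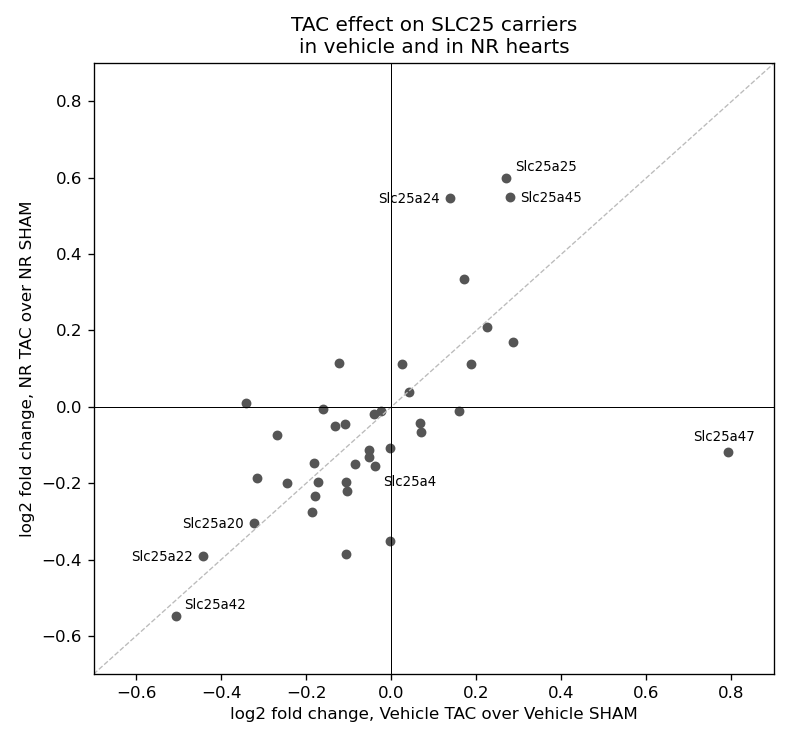
Log2 fold change for TAC of the 39 carriers with a mean of at least 50, in vehicle hearts (horizontal axis) and in NR hearts (vertical axis); the dashed line marks equal values. Slc25a42, Slc25a22 and Slc25a20 lie at the lower end of both axes, and 24 of 39 carriers lie below 0 on both with the authors' size factors.

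NR in TAC hearts left no carrier past a threshold. Of 46 carriers, 0 were called, against 0% of the 21420 genes of the authors' deposited table, and 0 had an unadjusted DESeq p below 0.05, against 2.61% of all genes. The median log2 fold change of the carriers was 0.01, with 25 of 46 above 0. Slc25a42 had 3242 normalized counts in NR TAC and 3078 in Vehicle TAC hearts (0.08, unadjusted DESeq p 0.719) in the authors' deposited table. Slc25a20 was at 0.02, Slc25a16 at 0.07, Slc25a17 at 0.02, Slc25a3 at 0.01, Slc25a4 at -0.10, Slc25a5 at -0.06 and Slc25a31 at -0.20 in the authors' deposited table. The smallest p-values among the higher carriers belonged to Slc25a27 (0.32, unadjusted DESeq p 0.185), Slc25a33 (0.26, p 0.206) and Slc25a30 (0.23, p 0.246) in the authors' deposited table. Among the lower ones they belonged to Slc25a15 (-0.35, unadjusted DESeq p 0.118), Slc25a47 (-0.98, p 0.249) and Slc25a1, the citrate carrier (-0.39, p 0.398), in the authors' deposited table. The median typical error over the carriers was 0.192.

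NR in SHAM hearts gave 0 calls of 44 carriers, against 0% of the 19917 genes, and 1 carrier lower at an unadjusted p below 0.05, against 1.08% of all genes lower. That carrier was Slc25a24, with 301 normalized counts in NR SHAM and 381 in Vehicle SHAM hearts (-0.34, unadjusted DESeq p 0.0275, adjusted p 1) in the authors' deposited table. The NR SHAM libraries with this low mean are also those against which Slc25a24 was high in NR TAC hearts. Slc25a25, with 197 in NR SHAM and 247 in Vehicle SHAM hearts (-0.33, unadjusted DESeq p 0.212), and Slc25a38, the glycine carrier (-0.21, p 0.140), had the next lower p-values in the authors' deposited table. Among the higher carriers these were Slc25a16 (0.16, unadjusted DESeq p 0.186), Slc25a33, a pyrimidine nucleotide carrier (0.43, p 0.242), and Slc25a42 (0.12, p 0.320) in the authors' deposited table. Slc25a3 was at 0.07, Slc25a4 at 0.02, Slc25a5 at 0.06, Slc25a31 at -0.21, Slc25a17 at 0.03 and Slc25a20 at 0.00 in the authors' deposited table. The median over the 44 carriers was 0.00, as over all genes.

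Whether NR acted differently in TAC and SHAM hearts, which is the same contrast as whether TAC acted differently with and without NR, was tested with an approximate z over 18474 genes. No gene was called (0%) and 224 had an unadjusted p below 0.05, a share well under 0.05. The test was therefore cautious on these data, and a missing call does not show that the effects were equal. Of the 41 carriers tested, 0 were called and 0 had an unadjusted p below 0.05. Slc25a2, Slc25a15 and Slc25a21 were left out of the 44 carriers in both NR comparisons, because a p-value of theirs gave no error. Of these, Slc25a15 had log2 fold changes for NR of -0.35 in TAC and 0.00 in SHAM hearts in the authors' deposited tables. The difference for Slc25a24 was 0.40 with an error of 0.25, and for Slc25a42 it was -0.05 with an error of 0.24, both on the log2 scale and both from the authors' deposited tables. Slc25a42 was therefore not shown to respond to TAC differently in NR and vehicle hearts, although it passed the threshold in 1 of the comparisons.

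Markers of other cells moved with the groups, and a few carriers lay beside them. The means of 15 hepatocyte genes such as Alb and Apoa1 summed to 1647 in NR TAC, 47956 in Vehicle TAC, 816 in NR SHAM and 775 in Vehicle SHAM hearts, on the common scale from the authors' deposited tables. All 15 were higher in Vehicle TAC than in Vehicle SHAM and all 15 lower in NR TAC than in Vehicle TAC, and Fgb was listed at 0 in NR TAC hearts. DESeq called 0 of the 15 in both comparisons, and 0 had an unadjusted p below 0.05 between the vehicle groups and 10 between the TAC groups. Slc25a47, a carrier known from liver, had 262 normalized counts in Vehicle TAC and 151 in Vehicle SHAM hearts (unadjusted DESeq p 0.484), and 135 in NR TAC against 267 in Vehicle TAC hearts, in the authors' deposited tables. Slc25a21, the oxodicarboxylate carrier, had 9.13 in Vehicle TAC and 2.14 in Vehicle SHAM hearts (unadjusted DESeq p 0.405) in the authors' deposited table. Slc25a1 had 328 in Vehicle TAC and 268 in Vehicle SHAM hearts (0.29, unadjusted DESeq p 0.555) in the authors' deposited table. These 3 carriers were picked for display, and others such as Slc25a23 and Slc25a36 also had their highest mean in Vehicle TAC hearts. The part of the hepatocyte markers in the 3 values was not tested.

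**Figure D5:**
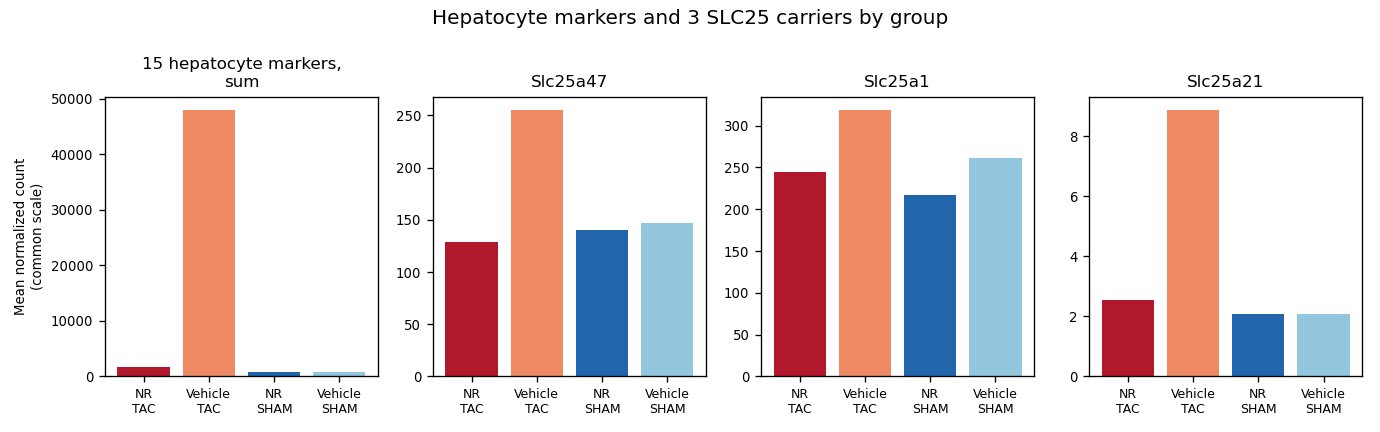
Summed group mean of 15 hepatocyte markers and group means of Slc25a47, Slc25a1 and Slc25a21 (normalized counts, common scale, axes from 0) in the 4 groups, without error bars because the tables hold means only. All 4 panels have their highest bar in Vehicle TAC hearts, where the marker sum is 47956.

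Beside Slc25a42, Slc25a22 and Slc25a20 the group means of heart muscle and connective tissue markers differed between TAC and SHAM hearts, with 0 calls among them. The 10 cardiomyocyte genes included 9 below 0 in NR hearts and 7 in vehicle hearts, with medians of -0.18 and -0.23 on the log2 scale in the authors' deposited tables. Of all genes, 46.8% and 48.1% were below 0. The 6 fibroblast genes summed to 62462 in NR TAC, 63966 in Vehicle TAC, 44530 in NR SHAM and 51001 in Vehicle SHAM hearts, on the common scale from the authors' deposited tables. The 6 macrophage genes summed to 5119 in NR TAC, 4869 in Vehicle TAC, 3722 in NR SHAM and 3831 in Vehicle SHAM hearts, from the same authors' deposited tables. The 5 blood genes summed to 44762 in NR TAC, 41994 in Vehicle TAC, 24233 in NR SHAM and 22170 in Vehicle SHAM hearts, on the same scale from the authors' deposited tables. Fibroblast, macrophage and blood sums were thus highest in the TAC groups. Single genes did not all follow: in vehicle hearts 2 of the 6 fibroblast and 1 of the 6 macrophage genes were below 0.

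Atrial genes differed between the groups, and not all in the same direction. Nppa, which also responds to load, had 27333 normalized counts in NR TAC and 2946 in NR SHAM hearts, and 49249 in Vehicle TAC and 4661 in Vehicle SHAM hearts, in the authors' deposited tables. Bmp10, made by atrial muscle, had 6511 in NR TAC and 4.21 in NR SHAM hearts, but 66.0 in Vehicle TAC and 1033 in Vehicle SHAM hearts, in the authors' deposited tables. Myl4, Myl7 and Sln had log2 fold changes between 3.02 and 3.99 for TAC in NR hearts and between 0.31 and 0.39 in vehicle hearts in the authors' deposited tables. Their unadjusted DESeq p-values lay between 0.113 and 0.182 in NR hearts and between 0.930 and 0.968 in vehicle hearts. For Bmp10 the unadjusted DESeq p was 0.00306 in NR and 0.189 in vehicle hearts. The 6 white adipocyte genes summed to 2392 in NR TAC, 2249 in Vehicle TAC, 909 in NR SHAM and 4551 in Vehicle SHAM hearts, on the common scale from the authors' deposited tables. They were lowest in NR SHAM hearts, as were Slc25a24, Slc25a25 and the fibroblast, macrophage, brown adipocyte and atrial sums. The highest white adipocyte sum was in Vehicle SHAM hearts, and the highest Slc25a24 mean was in NR TAC hearts. None of these markers was called in either TAC comparison, and their part in the carrier values was not tested.

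Import proteins and related carriers outside the Slc25a names gave 0 calls. The 8 import genes, among them Timm22 and Tomm70a, lay between -0.18 and 0.18 for TAC in NR hearts and between -0.15 and 0.26 in vehicle hearts in the authors' deposited tables. For NR in TAC hearts all 8 were negative, between -0.34 and -0.03, in the authors' deposited table, and Timm22 had the largest difference (unadjusted DESeq p 0.0583). Of all genes in that comparison, 50.3% were below 0, and the median typical error over the 8 was 0.180. The pyruvate carrier subunits Mpc1 and Mpc2 had log2 fold changes of -0.13 and -0.12 for TAC in NR hearts and -0.02 and -0.16 in vehicle hearts in the authors' deposited tables. Ucp3, the uncoupling protein of muscle, had 1046 normalized counts in NR TAC and 1165 in NR SHAM hearts, and 712 in Vehicle TAC and 1161 in Vehicle SHAM hearts (unadjusted DESeq p 0.190), in the authors' deposited tables. Ucp1, the brown fat uncoupling protein, had 146 in NR TAC hearts and was listed at 0 in NR SHAM hearts in the authors' deposited table (unadjusted DESeq p 0.00218, adjusted p 0.177).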

How the data were processed

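RNA of 30 mg heart pieces, prepared with the Qiagen RNeasy kit, was sequenced by BGISEQ-500 per the protocols in the labels. TopHat, HTSeq and DESeq were used on GRCm38, per the submitters' processing notes; versions and the strand setting are not given in the sources used here. The signal columns deposited by the authors hold, for each group, the mean of counts scaled by size factors; these factors belong to 1 pair of groups. In the deposited fold 1 was added to both means before division, the deposited log2 value is its logarithm, and the deposited p-value and adjusted p-value are the authors' DESeq test; no pair was tested again, because values per library are not in these tables. The fold understates changes of low genes. The members and lists were chosen with earlier results of these data known.

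Group means were brought to a common scale by the constant ratios of shared groups between tables. Exon lengths and positions came from GENCODE M21 for GRCm38, and promoter windows from RefSeq for GRCm38.p6. The test of the difference of the NR effect used errors formed from the authors' p-values, with Benjamini-Hochberg adjustment. It was checked on simulated data whose p-values came from the same normal formula, so the check does not cover how it behaves on DESeq p-values. Typical errors are medians over 50 bins of mean level. Always named were the ADP/ATP, NAD+, carnitine, coenzyme A and phosphate carriers, each called carrier, and per table the 3 carriers of each sign with the smallest p and a mean of at least 50; others serve as examples of their class. Python 3.11.15, pandas 2.3.3 and scipy 1.17.1 were used. Alternatives changed the threshold, the pseudocount, a minimum mean and the scaling.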

Additional observations from a re-analysis of the deposited data

How the results depend on the processing

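The count of carriers called for TAC in NR hearts was 1 at an adjusted p below 0.05 and 0 at an adjusted p below 0.01. The counts of carriers and of partner genes called in the other comparisons were 0 under each alternative run. Scaling by the sum of all genes shifted every log2 fold change by 0.15 for TAC in vehicle hearts, 0.09 for TAC in NR hearts, -0.08 for NR in TAC hearts and -0.03 for NR in SHAM hearts. The carriers' medians then became 0.10, 0.04, -0.07 and -0.03, each of the other sign, with 14, 20, 38 and 28 carriers below 0. Medians of all genes moved by the same amounts. Another alternative set the median of genes averaging 50 or more to 0 and moved values far less. Those medians had been -0.0079, 0.0039, 0.0025 and -0.0009 in the same order, and the carriers' medians kept their signs. Slc25a42 kept its direction for TAC in NR hearts under each alternative run, while 14 of the 54 values of named carriers changed sign with group means divided by their sum. An error floor in the test of the difference of the NR effect (0 carriers called) and a minimum mean of 50 for the count at an unadjusted p below 0.05 (7 carriers, as without it) were chosen after seeing the data. No paired analysis was possible because the columns are group means that carry no replicate. For the same reason leaving out 1 replicate in turn was not run, and the depth of the libraries and what it limits are unknown here.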
